A study of Mus musculus with 568 samples.

Results

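XGFP- primordial germ cell-like cells (PGCLCs), the germ cell stage of this culture system sorted for a silent X mus, were compared with the epiblast-like cells (EpiLCs) they were made from, to describe what germ cell induction changed in cells with 1 inactive X. The comparison used 8 of the 16 bulk RNA libraries, 4 of EpiLCs and 4 of XGFP- PGCLCs, and covered the 16281 of 16335 listed genes whose mean normalized count over the 16 libraries was above 10. All libraries came from XRep, a female hybrid embryonic stem cell (ESC) line from a cross of Mus musculus (129S1/SvImJ) and Mus castaneus (CAST/EiJ) that holds an X chromosome of each, X mus and X cas. Both groups therefore carried a Tsix truncation on X mus, which directs silencing to that chromosome, GFP on X mus and tdTomato on X cas, both inserted in Hprt, rtTA at Rosa26, and piggyBac copies of Blimp1 (*Prdm1*), *Prdm14* and *Tfap2c* under doxycycline-responsive promoters. EpiLCs were grown for 4 days on fibronectin with bFGF and activin A, without doxycycline, and were not sorted. XGFP- PGCLCs had a further 5 days as floating aggregates of 2000 cells in 1.5 µg/ml doxycycline without added cytokines, and were then sorted as SSEA1+ CD61+ cells that had lost GFP and kept tdTomato. Doxycycline, medium, aggregation, time, dissociation, staining and sorting all changed together with the group and cannot be told apart in this comparison. In bulk RNA, fewer cells of a type and less RNA per cell cannot be told apart either.

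Mouse primordial germ cells arise from the epiblast, when BMP and WNT signals switch on a small set of transcription factors. PRDM1 (BLIMP1) represses the somatic programme, PRDM14 restores naive pluripotency genes and lowers DNA methylation, and TFAP2C acts downstream of PRDM1. The emerging germ cells shut down epiblast genes, regain part of the naive pluripotency network, lose DNA methylation, and enter meiosis only after they have reached the gonad. Female germ cells start from epiblast cells with a silent X chromosome coated by Xist RNA, and lose Xist and reactivate that X as they migrate and mature.

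The 8 libraries held 36810832 to 46533858 recovered reads on genes. Spearman correlations across genes were 0.992 to 0.997 within groups and 0.879 to 0.888 between them. Testing used limma-trend, fitted to log2(normalized count + 1) of all 16 libraries, and genes were called at a Benjamini-Hochberg adjusted p (FDR) below 0.001. A log2 difference is XGFP- PGCLC minus EpiLC on that scale, which understates changes of genes with low counts. Of all genes tested, 4873 (29.9%) were called higher and 5200 (31.9%) lower in XGFP- PGCLCs, and 2618 (16.1%) and 3067 (18.8%) were also changed by more than 1 in log2. The median difference of all genes was -0.03. Large falls outnumbered large rises, with 1037 called genes below -3 and 458 above 3. Libraries of the groups did not overlap for 10047 of the 10073 genes called, so a lack of overlap adds little to a call. The share without overlap over all genes tested was not counted. The most abundant transcript, the mitochondrial ribosomal RNA mt-Rnr2, took 9.42 to 10.8% of counts in EpiLCs and 13.9 to 15.3% in XGFP- PGCLCs. The labels number the replicates 1 to 4 without tying them to a clone or culture, so p-values measure the spread between libraries. The authors' text describes 2 clones with 2 technical replicates of each, while a figure legend calls the 4 libraries of a group biological replicates. If the text holds, SDs, FDRs and permutation p-values that count the 4 libraries as independent are too small.

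**Figure D1:**
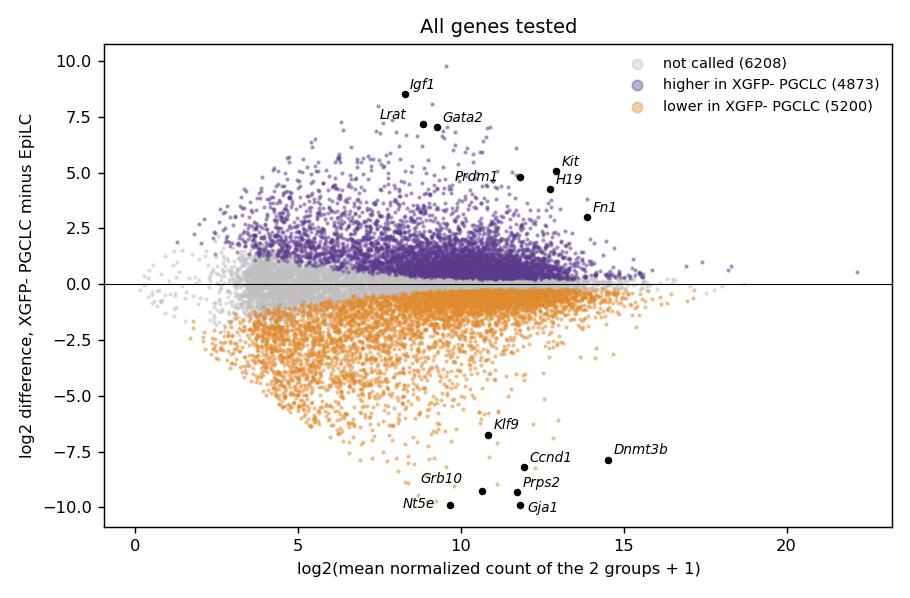
Log2 difference of each gene tested (vertical axis, XGFP- PGCLC minus EpiLC) against its mean level (horizontal axis, log2 of the mean normalized count of the groups plus 1), coloured by call. Of the 16281 genes, 4873 were called higher and 5200 lower, and falls beyond -5 (255 genes) outnumber rises beyond 5 (89 genes).

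The factors that specify the germ line were all far higher in XGFP- PGCLCs. *Prdm1* (ENSMUSG00000038151, chr10:44437177-44528501) had normalized counts of 363, 287, 238 and 153.1 in the 4 EpiLC libraries and 7099.9, 7264, 6431 and 7043 in the 4 XGFP- libraries, 27.9-fold higher (log2 difference 4.80, SE 0.181, FDR = 4.4e-14). *Prdm14* (ENSMUSG00000042414, chr1:13113457-13127163) went from 334, 99.9, 242 and 29.6 to 4419, 4397, 4192 and 4155 (log2 difference 5.09, SE 0.453, FDR = 6.7e-09). *Tfap2c* (ENSMUSG00000028640, chr2:172549593-172558622) went from 241, 181.9, 171.9 and 147.1 to 6192, 6046, 5901 and 5777 (log2 difference 5.03, SE 0.12, FDR = 1.2e-16). No library of either group overlapped the other for these genes, and EpiLC library 4 was the lowest EpiLC library for each of them. Reads from the doxycycline-driven copies and from the native genes cannot be told apart in these values. *Dppa3* (ENSMUSG00000046323, chr6:122626410-122630272), also called Stella, is not on the transgenes. It rose from 877, 848, 538 and 527 to 4425, 5096, 5287 and 5980.1, a 7.62-fold difference (log2 difference 2.93, SE 0.143, FDR = 1.4e-12).

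Other early germ cell genes rose with them, and none of these is carried by a transgene. Of 18 tested, 14 (77.8%) were called higher and 1 (5.56%) lower, against 29.9% higher and 31.9% lower of all genes, with a median log2 difference of 3.19. In XGFP+ PGCLCs, the PGCLCs that kept GFP, the median against the same EpiLC libraries was 3.41, so this rise was not particular to XGFP- cells. *Kit* (ENSMUSG00000005672, chr5:75574916-75656722), the receptor for stem cell factor that germ cells need for survival and migration, rose from 498, 506, 372 and 425 to 14926, 15168, 13429 and 16706 (log2 difference 5.07, SE 0.0948, FDR = 6.9e-18). *Nanos3*, an RNA-binding protein that protects migrating germ cells, went from 9.51, 15.8, 3.97 and 10.9 to 374, 410.5, 320.3 and 422 (log2 difference 5.24, FDR = 1.7e-10). *Dnd1*, another RNA-binding protein of the germ line, went from 426 ± 36.3 to 3624 ± 277 (mean ± SD, n = 4 for all values in this form; log2 difference 3.08, FDR = 1.0e-14). Each of these genes was higher in every XGFP- library than in any EpiLC library. The homeobox genes *Rhox9* and *Rhox6*, from the X-linked Rhox cluster, whose similar copies may share reads, had the largest rises of the list, by 6.98 and 6.10 in log2. The interferon-induced transmembrane genes *Ifitm1*, *Ifitm2* and *Ifitm3* were higher by 3.66, 1.50 and 1.72. *Alpl*, tissue non-specific alkaline phosphatase, a classical germ cell stain, went from 1238 ± 344 to 8664 ± 637 (log2 difference 2.85, FDR = 7.4e-13). The one member called lower was *Lin28a*, a blocker of let-7 processing, which went from 20310 ± 999 to 5441 ± 592 (log2 difference -1.91, FDR = 7.3e-12). *Dmrt1* (log2 difference -0.54, FDR = 0.0569), *Prdm16* (log2 difference 0.14, FDR = 0.433) and *Rhox5* (log2 difference 0.33, FDR = 0.212) were not called. The integrin *Itgb3* encodes CD61, on which the cells were sorted, and its level (15.4 ± 5.17 and 1794 ± 190.7) is therefore no finding.

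**Figure D2:**
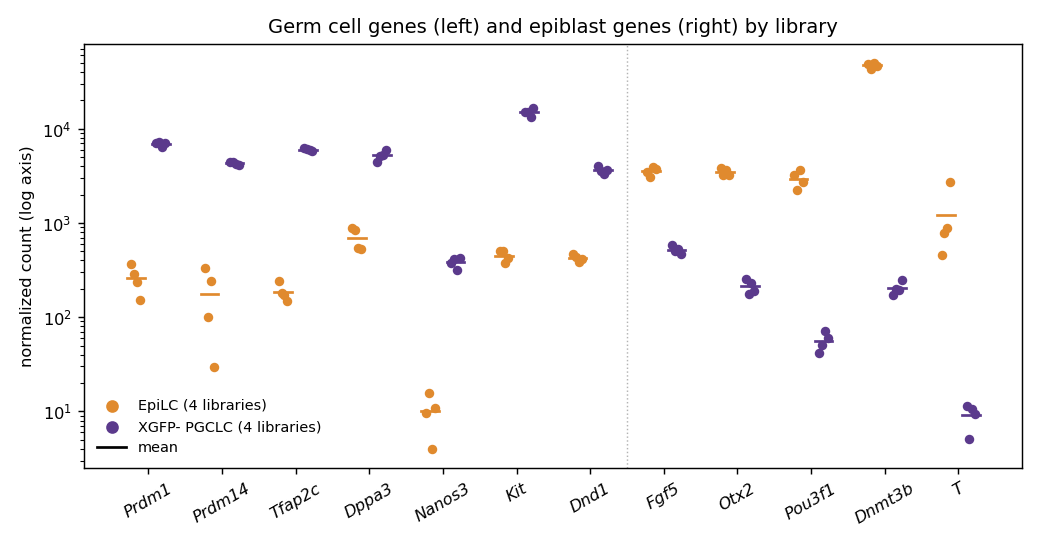
Normalized counts (vertical log axis) of germ cell genes (left of the dotted line) and of epiblast and streak genes (right), 1 point per library and a line at the mean, for 4 EpiLC and 4 XGFP- PGCLC libraries. For every gene shown the libraries of the groups do not overlap, and the EpiLC points of *Prdm14* and *T* are the most spread.

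The epiblast programme had the largest share of members called lower of all gene lists counted here. None of the 24 formative and primed epiblast factors was called higher, 21 (87.5%) were called lower, against 31.9% of all genes, and the median difference was -3.30. In XGFP+ PGCLCs the median against the same EpiLC libraries was -3.48. *Dnmt3b* (ENSMUSG00000027478, chr2:153649450-153687730), the de novo DNA methyltransferase of the epiblast, dropped from 49201, 43335, 49490.1 and 45921 to 173.3, 201, 192.4 and 245 (log2 difference -7.86, SE 0.134, FDR = 4.6e-18). *Pou3f1* (OCT6) dropped from 3239, 2263, 3645 and 2688 to 41.6, 50.8, 71.2 and 59.8 (log2 difference -5.71, SE 0.196, FDR = 1.3e-14). *Otx2*, whose removal is known to widen the window for germ cell entry, dropped from 3844, 3214, 3645 and 3259.7 to 257, 177.8, 233 and 191.7 (log2 difference -4.03, SE 0.172, FDR = 2.2e-13). *Fgf5*, the standard formative epiblast marker, fell less, from 3498, 3081, 3883 and 3741 to 581, 501, 528 and 463 (log2 difference -2.77, FDR = 3.3e-10). In XGFP- PGCLCs *Fgf5* thus kept a level of over 400 counts, while *Wnt8a* (1773 ± 411 to 2.49 ± 1.39) and *Foxd3* (660.5 ± 221 to 2.60 ± 1.76), a forkhead factor of the epiblast, were close to 0. The chromatin factor *Utf1* was among the 3 members not called (log2 difference 0.11, FDR = 0.326).

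Naive pluripotency factors moved the other way, though not all of them. Of 19 tested, 12 (63.2%) were called higher and 3 (15.8%) lower, against 29.9% higher and 31.9% lower of all genes, with a median of 1.58. The nuclear receptors *Nr5a2* and *Esrrb* rose by 3.62 and 3.33. *Esrrb* had 1902, 1453, 995 and 594 counts in EpiLCs and 10929, 10476, 11930.1 and 12342 in XGFP- PGCLCs, and *Tfcp2l1*, a naive-state transcription factor, went from 997 ± 298 to 9569.5 ± 1003. *Klf2* (2.52) and the LIF receptor subunits *Lifr* (2.20) and *Il6st* (2.43) were also called higher. *Klf4* was not, at 130.7, 103.8, 114.3 and 123.4 and 136.1, 162.6, 177.9 and 180.4 (log2 difference 0.47, FDR = 0.00107), though 5 of 17 alternatives called it higher, among them quantile normalization (FDR = 1.7e-05), DESeq2 (FDR = 0.000856), and leaving out EpiLC library 1 (FDR = 0.000865) or XGFP- library 1 (FDR = 0.000259). *Nr0b1* (log2 difference 0.42, FDR = 0.273) was not called either. *Fgf4*, the autocrine signal that drives naive cells into differentiation, fell from 3861, 2939, 2949 and 2135 to 49.4, 64.01, 42.3 and 63.9 (log2 difference -5.72, SE 0.248, FDR = 2.7e-13), and *Tbx3* fell by 2.23 in log2. Among core pluripotency genes *Sox2* rose from 2695 ± 786 to 11455 ± 661 (log2 difference 2.13, FDR = 1.1e-10) and *Nanog* from 3690.3 ± 544 to 10077 ± 281 (log2 difference 1.46, FDR = 2.4e-11). *Pou5f1* (OCT4) stayed within a narrow range, from 26089 ± 1319 to 19579 ± 600.1 (log2 difference -0.41, FDR = 5.1e-06, and FDR = 0.00195 after quantile normalization). *Tdgf1*, the Nodal co-receptor Cripto, went from 12182 ± 913 to 1251 ± 88.95 (log2 difference -3.28, FDR = 7.0e-14). The core list as a whole had 5 (35.7%) members called higher and 8 (57.1%) lower of 14, against 29.9% higher and 31.9% lower of all genes.

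Later germ line genes, which are normally kept off by promoter DNA methylation and come on as the germ line loses it, were lower in XGFP- PGCLCs than in EpiLCs. Of 23 tested, 17 (73.9%) were called lower and 2 (8.7%) higher, against 31.9% and 29.9% of all genes, with a median of -2.25. Unlike the early germ cell and epiblast lists, this list had a different median in XGFP+ PGCLCs, -0.17. Many promoters of this class carry an E-box, CACGTG, the sequence bound by the MGA and MAX subunits of the repressor complex PRC1.6. In RefSeq promoter windows (GRCm38.p6, 250 bases before to 50 after the start, both strands, which read the same for this palindrome), 13 of 22 genes of the list (59.1%) held it, against 8.09% of all 27025 genes with a window and 11.7% of those tested here. Of the 16 members called lower that had a window, 11 held the E-box. The 100 bases before the RefSeq start of 6 members, read 5′ to 3′ on the strand of the gene, are printed because they carry that motif, in capitals, with all other bases in lower case. *Stk31* stands among them as a member that rose.
*Hormad1*, chr3:95559577-95559676, plus strand: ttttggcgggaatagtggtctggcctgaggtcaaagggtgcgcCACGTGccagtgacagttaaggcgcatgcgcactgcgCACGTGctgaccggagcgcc
*Sycp3*, chr10:88459487-88459586, plus strand: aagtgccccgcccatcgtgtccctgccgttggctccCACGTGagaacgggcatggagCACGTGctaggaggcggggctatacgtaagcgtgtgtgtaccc
*Taf7l*, chrX:134476491-134476590, minus strand: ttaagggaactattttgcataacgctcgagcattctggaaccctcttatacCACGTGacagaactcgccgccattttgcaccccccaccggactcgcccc
*Slc25a31*, chr3:40708771-40708870, plus strand: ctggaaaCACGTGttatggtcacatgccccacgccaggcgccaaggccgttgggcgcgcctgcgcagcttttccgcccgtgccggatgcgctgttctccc
*Ddx4*, chr13:112652311-112652410, minus strand: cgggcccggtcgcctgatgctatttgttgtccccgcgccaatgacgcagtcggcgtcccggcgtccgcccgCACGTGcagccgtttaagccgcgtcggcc
*Stk31*, chr6:49395439-49395538, plus strand: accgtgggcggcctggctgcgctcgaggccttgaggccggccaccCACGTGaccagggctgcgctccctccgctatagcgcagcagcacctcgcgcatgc
*Hormad1* and *Sycp3* have 2 E-boxes each in these 100 bases and the other 4 genes have 1. A match to these letters is a description of the sequence and does not show binding.

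*Hormad1* (ENSMUSG00000028109, chr3:95559677-95587671), a meiotic chromosome axis protein, fell from 1629, 1117, 1364 and 579.7 in EpiLCs to 21.7, 40.6, 16.4 and 55.7 in XGFP- PGCLCs (log2 difference -5.14, SE 0.324, FDR = 4.9e-11). *Sycp3* (ENSMUSG00000020059, chr10:88459569-88473236), an axis component of the synaptonemal complex, fell from 955, 965, 880.3 and 749 to 97.9, 113.8, 133.7 and 170.1 (log2 difference -2.80, SE 0.157, FDR = 9.4e-12). *Taf7l* (ENSMUSG00000009596, chrX:134460118-134476490), an X-linked TAF7 paralogue of germ cells, fell from 76.8, 59.3, 115.2 and 64.2 to 2.60, 1.02, 5.77 and 3.09 (log2 difference -4.36, SE 0.371, FDR = 3.6e-09). *Slc25a31*, the germ line ADP/ATP carrier, fell from 141.2 ± 52.4 to 20.5 ± 7.70 (log2 difference -2.72, FDR = 1.3e-08). *Ddx4* (Vasa, ENSMUSG00000021758, chr13:112598333-112652475), an RNA helicase of later germ cells, fell from 494, 614, 509.7 and 511 to 186.3, 187.96, 219 and 301 (log2 difference -1.27, SE 0.155, FDR = 4.9e-07). All of these were expressed in EpiLCs before the fall, all but *Taf7l* at over 80 counts on average. *Dmrtb1* had 272, 197.8, 254 and 224 counts in EpiLCs and 0 in every XGFP- library, at least 330.5-fold lower against a floor of 3 counts over the group. *Dazl*, the RNA-binding protein that licenses germ cells for sexual development, was not called, with 281, 190.8, 309 and 190.6 in EpiLCs and 128.2, 298, 161.6 and 803 in XGFP- PGCLCs (log2 difference 0.16, FDR = 0.729), and without XGFP- library 4 its difference was -0.37 (FDR = 0.289). *Piwil2* was not called either (log2 difference 0.17, FDR = 0.401). *Stk31* rose from 204, 228, 262 and 213 to 531, 693, 538 and 938 (log2 difference 1.53, SE 0.166, FDR = 9.9e-08), and the other member called higher was the naive factor *Zfp42* (REX1, 1.58). The summed level of the list without *Zfp42* was 10166.5, 8072, 9264 and 6116.5 in EpiLCs and 2582, 3190.3, 2813 and 4994 in XGFP- PGCLCs. XGFP- library 4 held the highest of the 4 XGFP- values for 18 of the 22 members with a read in that group. Without that library 17 members were again called lower and 2 higher. In XGFP+ PGCLCs, compared with the same EpiLC libraries, *Hormad1* was at 779.6 ± 165.8, *Sycp3* at 534 ± 39.04 and *Ddx4* at 461 ± 40.1.

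**Figure D3:**
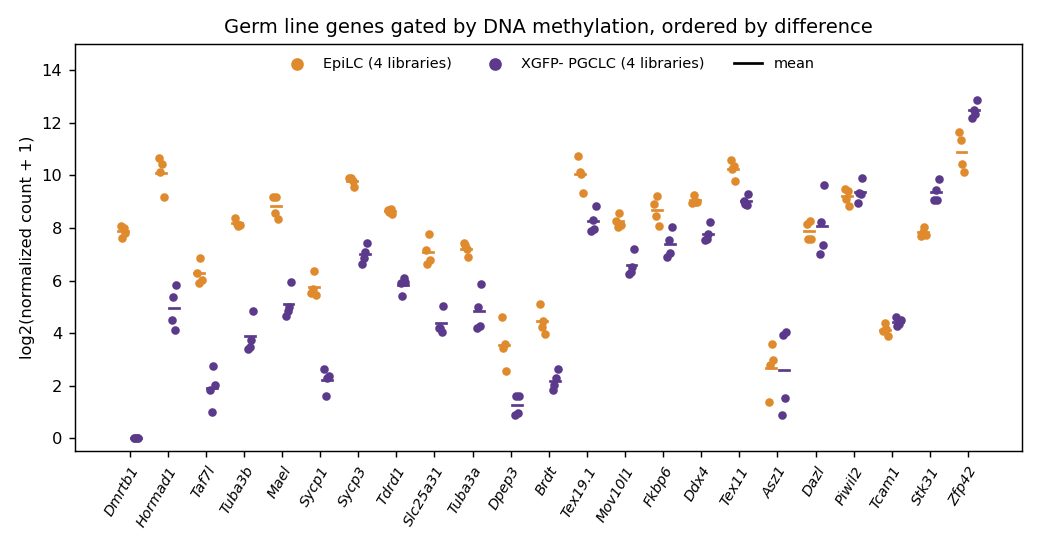
Levels of the 23 methylation-gated germ line genes as log2(normalized count + 1), 1 point per library and a line at the mean, ordered from the largest fall to the largest rise. From *Dmrtb1* to *Tex11* the XGFP- PGCLC libraries lie below the EpiLC libraries, and XGFP- library 4, the rightmost of each purple set, is most often its highest point.

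Meiotic genes outside that list split in direction. Of 23 tested, 6 (26.1%) were called higher and 10 (43.5%) lower, against 29.9% higher and 31.9% lower of all genes, with a median of -0.41. *Meioc*, which keeps meiotic prophase going, fell from 1373, 1371, 1350.2 and 1189 to 40.7, 41.7, 27.9 and 34.01 (log2 difference -5.17, SE 0.239, FDR = 6.6e-13). The synaptonemal complex genes *Syce3*, *Sycp2* and *Syce1* fell by 3.27, 2.39 and 2.06 in log2. *Spo11*, which makes the double-strand breaks of meiotic recombination, rose from 7.13, 10.9, 15.9 and 5.92 to 134.3, 128.02, 81.8 and 102.04 (log2 difference 3.42, FDR = 1.4e-07), and *Rec8*, the meiotic cohesin, from 230.4 ± 45.98 to 614 ± 58.4 (log2 difference 1.43, FDR = 1.2e-08). *Aurkc* (2.54) and *Msh5* (1.85) also rose. *Stra8* and *Meiosin*, the triggers of meiotic entry, were not analysed here. The piRNA genes split too, with 5 (29.4%) of 17 called higher and 7 (41.2%) lower, near or above the same shares of all genes. *Tdrd5*, a germ granule protein, rose from 583 ± 203 to 3989 ± 206 (log2 difference 2.83, FDR = 1.6e-10) and *Exd1* by 3.00, while *Piwil4* fell to 0, 1.02, 1.92 and 1.03 from 38.8, 38.6, 53.6 and 48.4 (log2 difference -4.61, FDR = 1.3e-09). Of 6 oocyte genes tested none was called higher and 4 (66.7%) were lower, against 29.9% higher and 31.9% lower of all genes. Those that fell included *Nlrp14* (-3.40), *Zp3* (-2.89) and *Sohlh2* (-1.77). Another 15 of the 21 members of that list were absent from the listed genes, so the shares describe only the members tested. In XGFP+ PGCLCs the median of the tested members against the same EpiLC libraries was 0.69.

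The enzymes that write and keep DNA methylation changed unevenly. Of 20 tested, 10 (50%) were called lower and 8 (40%) higher, against 31.9% and 29.9% of all genes. Beside *Dnmt3b*, the de novo enzyme *Dnmt3a* fell from 8516 ± 1430 to 2549 ± 202 (log2 difference -1.73, FDR = 1.2e-11) and the cofactor *Dnmt3l* from 3961 ± 982 to 274 ± 42.7 (log2 difference -3.83, FDR = 2.0e-12). *Uhrf1*, which brings the maintenance enzyme to replicated DNA, dropped from 13584, 13066, 12528 and 12409 to 1988, 1798, 2075 and 1541 (log2 difference -2.81, SE 0.0884, FDR = 4.5e-15). The maintenance enzyme itself, *Dnmt1*, was higher, at 15747 ± 370.4 and 23895 ± 223 (log2 difference 0.60, FDR = 1.8e-09). *Zfp57*, a zinc finger protein that protects imprints, fell from 2032, 1451, 1490.3 and 1078 to 63.3, 70.1, 75.98 and 86.6 (log2 difference -4.31, SE 0.174, FDR = 1.1e-13). Among the enzymes that oxidise methylcytosine *Tet1* (0.93) and *Tet2* (1.58) rose and *Tet3* fell (-3.69).

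Imprinted genes had 19 (48.7%) of 39 members called lower and 7 (17.9%) higher, against 31.9% and 29.9% of all genes, with a median of -0.65. *Grb10* (ENSMUSG00000020176, chr11:11930508-12038683), an adaptor that restrains insulin signalling, had 3911, 2851, 3690.1 and 2442 counts in EpiLCs and 12.1, 1.02, 2.88 and 6.18 in XGFP- PGCLCs (log2 difference -9.25, SE 0.444, FDR = 1.1e-12). *Peg10* fell by 3.25 and *Meg3*, a maternally expressed long non-coding RNA, by 2.75 in log2. *H19*, another maternally expressed RNA, rose from 699, 699, 657 and 686 to 12417, 14693, 12842 and 12432 (log2 difference 4.25, SE 0.196, FDR = 6.3e-13), while its neighbour *Igf2* was not called (log2 difference -0.44, FDR = 0.213). *Peg3* rose from 13197 ± 768 to 40085 ± 2077 and *Igf2r* from 4408 ± 150.7 to 16013 ± 501. The counts used here do not give the parental allele of these autosomal genes.

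**Figure D4:**
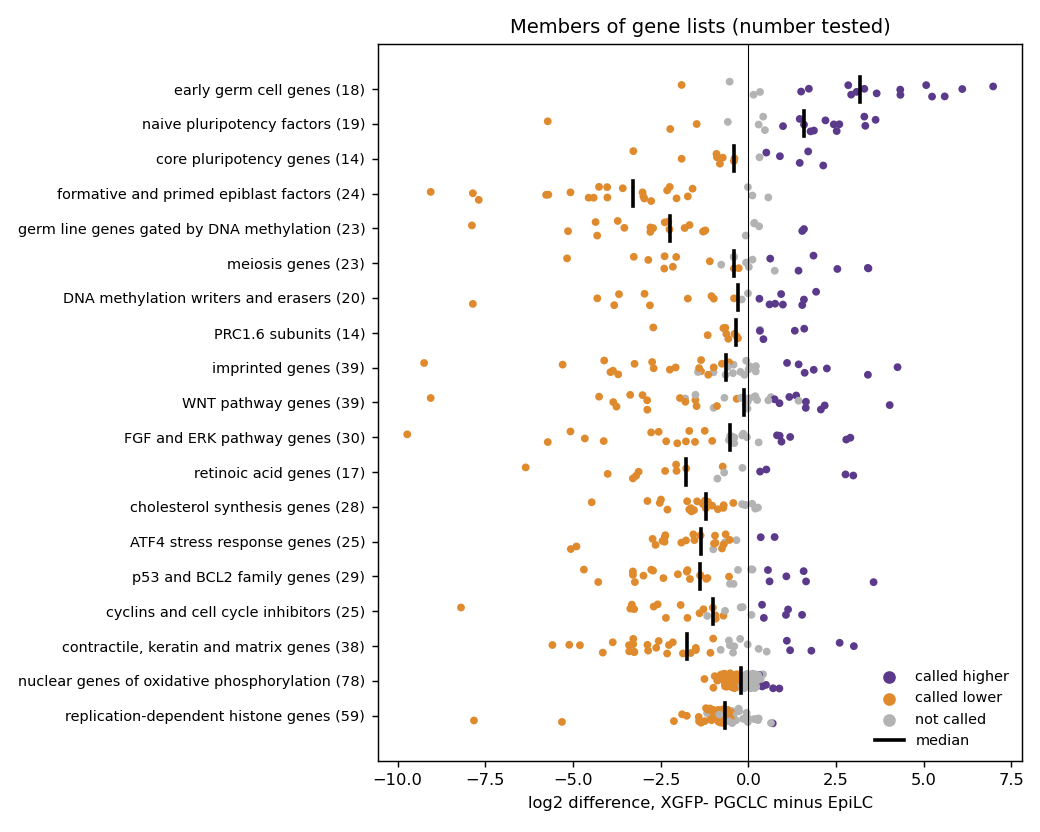
Log2 differences (horizontal axis) of the tested members of 19 gene lists, 1 point per gene coloured by call, with a black bar at each median and the number tested in brackets. The epiblast list lies almost wholly left of 0 with a median of -3.30, and the early germ cell list lies mostly right of it with a median of 3.19.

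Subunits of the repressor complexes changed in both directions. Among 14 PRC1.6 genes, *Max* (log2 difference 1.32, FDR = 1.3e-13) and *Ring1* (log2 difference 1.59, FDR = 6.9e-11) rose and *Yaf2* (log2 difference -2.71, FDR = 5.0e-12) and *Rybp* (log2 difference -1.16, FDR = 4.1e-10) fell, and 4 (28.6%) were called higher against 9 (64.3%) lower (29.9% and 31.9% of all genes). *Mga* rose by 0.43, and *E2f6* and *Pcgf6* fell by 0.57 and 0.34. In PRC2, the complex that trimethylates histone H3 at lysine 27, the catalytic subunits *Ezh1* (1.44) and *Ezh2* (0.53) and the scaffold *Suz12* (1.12) were called higher, among 6 (37.5%) of 16 genes higher and 5 (31.2%) lower, close to the shares of all genes. *Phf19*, a subunit that brings PRC2 to chromatin, rose from 281, 260.1, 187.8 and 158.99 to 6825, 6146, 6811 and 6083 (log2 difference 4.89, SE 0.153, FDR = 4.0e-15), and *Epop*, which binds Elongin to PRC2, fell from 2332 ± 619 to 321 ± 23.1 (log2 difference -2.82, FDR = 3.1e-10). *Phf19* was thus the PRC2 gene with the largest difference. Of 20 genes that methylate, demethylate or read lysine 9 of histone H3, 6 (30%) rose and 6 (30%) fell, close to the shares of all genes (29.9% and 31.9%). Members with calls included *Kdm3b* (1.59) and *Kdm3a* (1.18), which rose, and *Ehmt1* (-0.90), which fell. *Setdb1* was not called (log2 difference 0.09, FDR = 0.311).

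Signalling lists held members that rose and members that fell. In the WNT pathway 9 (23.1%) of 39 members rose and 14 (35.9%) fell, near the 29.9% and 31.9% of all genes. The ligands *Wnt8a*, *Wnt6* and *Wnt5b* fell, by 9.06, 3.85 and 3.76, as did *Wnt3*, the ligand known to prime the epiblast (1330.2 ± 395 to 453 ± 53.1, log2 difference -1.51, FDR = 7.0e-06). *Porcn*, the acyltransferase that lipidates WNT ligands, rose from 521, 435, 226 and 233 to 5833, 5689, 5134 and 4999 (log2 difference 4.03, SE 0.22, FDR = 6.6e-12), while *Wls*, which carries them to the surface, fell from 844 ± 232 to 43.8 ± 13.2 (log2 difference -4.26, FDR = 2.7e-10). The feedback target *Axin2* was not called (log2 difference -0.22, FDR = 0.285). *T* (Brachyury), a WNT target and streak factor, fell from 452, 783, 884 and 2729 to 11.3, 5.08, 10.6 and 9.28 (log2 difference -6.63, SE 0.561, FDR = 3.3e-09), and EpiLC library 4 was its highest.

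In the BMP pathway 6 (28.6%) of 21 members rose and 7 (33.3%) fell, near the 29.9% and 31.9% of all genes. *Id3*, a direct target of BMP signalling, rose from 160.00, 119.7, 124.2 and 121.5 to 1572, 1449, 1248 and 1155 (log2 difference 3.36, SE 0.121, FDR = 2.5e-14), *Msx2* by 5.30 and the inhibitory *Smad6* by 2.52, while *Id1* was not called (log2 difference 0.11, FDR = 0.558) and *Id2* fell by 2.71. Among the ligands *Bmp7* rose from 257 ± 53.3 to 1973 ± 157.2 and *Bmp8b* fell from 54.9 ± 7.91 to 4.38 ± 1.92. *Bmp4* had 80, 71.2, 76.5 and 66.2 in EpiLCs and 42.5, 44.7, 36.5 and 48.4 in XGFP- PGCLCs (log2 difference -0.76, FDR = 0.00023). That call was lost after quantile normalization (FDR = 0.0584) and on leaving out EpiLC library 1 (FDR = 0.00101) or XGFP- library 3 (FDR = 0.00117). *Fst* (follistatin), an activin and BMP antagonist, fell from 3562 ± 1076 to 63.7 ± 16.1 (log2 difference -5.77, FDR = 4.5e-14). In the Nodal pathway 6 (33.3%) of 18 members rose and 3 (16.7%) fell, the share that fell being below that of all genes. *Nodal* itself fell from 5429 ± 775 to 1178 ± 27.5 (log2 difference -2.19, FDR = 3.7e-14), while its feedback inhibitor *Lefty2* rose (log2 difference 1.38, FDR = 2.1e-05).

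In the FGF pathway 14 (46.7%) of 30 genes fell and 6 (20%) rose, against 31.9% and 29.9% of all genes. The ligands *Fgf4*, *Fgf5*, *Fgf8* and *Fgf15* fell, the last from 1402, 1298, 1098 and 1057 to 0, 1.02, 0 and 1.03, a ratio of 2540.4, 95% interval 703 to 20982 that covers counting error only. The receptors *Fgfr2* (1041 ± 189.8 to 7717 ± 352, log2 difference 2.91, FDR = 1.3e-08) and *Fgfr3* (2.79) rose, and *Fgfr1* was not called (log2 difference 0.29, FDR = 0.0127). Of the ERK-responsive genes *Etv4* (-4.67), *Egr1* (-2.35) and *Dusp6* (-1.25) fell and *Dusp4* rose (0.89). The retinoic acid list had 10 (58.8%) of 17 members lower and 4 (23.5%) higher, against 31.9% and 29.9% of all genes. The number higher was 2 on leaving out EpiLC library 2 or 3 or XGFP- library 1 or 3, and after quantile normalization. *Rarg* fell from 2317 ± 77.5 to 251 ± 19.3 (log2 difference -3.20, FDR = 3.5e-13), *Rarb* rose from 7.38 ± 1.86 to 64.6 ± 8.63 (log2 difference 2.99, FDR = 1.3e-07), and *Cyp26a1*, which degrades retinoic acid, fell from 28.3 ± 11.6 to 2.31 ± 1.81.

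Markers of other lineages included members that rose and members that fell in each list. Many members were absent from the listed genes, so the shares describe only the members tested. Absent were 8 of 24 streak and mesoderm, 9 of 18 neural and surface ectoderm and 9 of 20 endoderm genes. The same held for 6 of 17 trophoblast and 6 of 16 blood and endothelial genes. For primitive streak and mesoderm genes the summed normalized counts were 2766 to 6188 in EpiLCs and 1588 to 2105 in XGFP- PGCLCs, with 4 (25%) of 16 tested called higher and 7 (43.8%) lower, against 29.9% higher and 31.9% lower of all genes. *Gata2*, known as a haematopoietic and trophoblast factor, made up most of the sum in XGFP- PGCLCs, with 6.34, 4.94, 11.9 and 12.8 in EpiLCs and 1231, 1377, 1395 and 951 in XGFP- PGCLCs (log2 difference 7.03, SE 0.279, FDR = 8.6e-14). *Mixl1* (-4.19) and *Eomes* (-2.89) fell. Neural and surface ectoderm genes summed to 11159.7 to 18691 in EpiLCs and 3381 to 3834 in XGFP- PGCLCs, with 4 (44.4%) of 9 higher and 5 (55.6%) lower. Nestin, *Nes* (11583 ± 3367 to 2511 ± 134.9), which made up most of that sum, and *Sox11* (1165 ± 124.8 to 4.67 ± 2.82) fell and *Pax6* (26.4 ± 13.9 to 305 ± 48.2) rose. The endoderm list summed to 17822 to 20322 in EpiLCs and 5092 to 6679.6 in XGFP- PGCLCs, with 1 (9.09%) of 11 higher and 5 (45.5%) lower. The endocytic receptor *Lrp2* (9364 ± 1752 to 124.01 ± 34.3) and the endoderm factor *Foxa2* (75.1 ± 10.4 to 11.97 ± 4.93) fell. Trophoblast genes had 7 (63.6%) of 11 members higher and 3 (27.3%) lower, against 29.9% higher and 31.9% lower of all genes, with sums of 3161 to 4612 in EpiLCs and 3217 to 3585 in XGFP- PGCLCs. *Wnt7b* (83.3 ± 30.04 to 771 ± 147.8) and *Krt7* (91.7 ± 6.31 to 569 ± 117.1) rose, and *Cdx2* was not called (3.96, 3.96, 7.95 and 8.89 and 66.7, 60.96, 34.6 and 22.7, FDR = 0.00216), although edgeR (FDR = 0.00022) and DESeq2 (FDR = 2.3e-05) called it higher on recovered reads. In the blood and endothelial list *Tal1* and *Gata1* were at 0 in every XGFP- library, at least 264-fold and 12.9-fold below EpiLCs against the same floor, whereas *Pecam1*, which early germ cells also express, rose from 1344 ± 255 to 8558 ± 502. That list had 2 (20%) of 10 members higher and 6 (60%) lower, and summed to 2135 to 2506 in EpiLCs and 8501 to 9525 in XGFP- PGCLCs. Whether other cell types contribute to any of these values was not tested.

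The immediate early genes, which cell dissociation is known to induce, were mostly lower in the sorted cells, with 19 (70.4%) of 27 called lower and 6 (22.2%) higher, against 31.9% and 29.9% of all genes, and a median of -1.67. *Fos* fell from 795 ± 196.2 to 191.6 ± 34.6 and *Atf3* from 565 ± 178.1 to 15.4 ± 1.12. Cytoskeletal, keratin and matrix genes fell as well, 24 (63.2%) of 38 against 5 (13.2%) that rose. *Thbs1* fell from 2104 ± 548 to 44.1 ± 16.9 (log2 difference -5.59, FDR = 1.0e-10), *Tagln* from 1186 ± 392 to 81.4 ± 29.9, *Krt8* from 1119, 2349.6, 1800.3 and 4299.5 to 214, 304, 126.96 and 192.7 (log2 difference -3.40, FDR = 2.8e-07), with EpiLC library 4 highest, and *Vim* (vimentin) from 2420 ± 336 to 260 ± 98.2. Fibronectin, *Fn1*, went the other way, from 4112, 3896, 3244 and 2417 to 26992, 25756, 30050.3 and 25077 (log2 difference 3.01, SE 0.143, FDR = 9.9e-13). At the cell surface E-cadherin *Cdh1* fell from 19453 ± 1685 to 6632 ± 538 (log2 difference -1.55, FDR = 2.2e-12), N-cadherin *Cdh2* fell by 2.20 and P-cadherin *Cdh3* rose from 1772 ± 129.2 to 10866 ± 339 (log2 difference 2.62, FDR = 2.5e-15). *Cxcr4*, the chemokine receptor that guides germ cells to the gonad, rose from 23.8, 29.7, 32.8 and 17.8 to 1679, 1661, 1791 and 1707 (log2 difference 6.02, SE 0.219, FDR = 2.8e-14).

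Cyclins and cell cycle regulators were mostly lower. Of 25 cyclins, kinases and inhibitors, 15 (60%) were called lower and 5 (20%) higher, against 31.9% and 29.9% of all genes, with a median of -1.01. *Ccnd1* (ENSMUSG00000070348, chr7:144929931-144939925), cyclin D1, fell from 8113, 7625, 7236 and 8139.9 to 38.1, 25.4, 21.2 and 20.6 (log2 difference -8.20, SE 0.261, FDR = 5.3e-15), and *Ccnd3* rose from 1520.2 ± 81.8 to 4389 ± 191.2 (log2 difference 1.53, FDR = 1.9e-14). *Ccne1* fell by 2.35, *Myc* by 3.32 and the inhibitor *Cdkn1a* (p21) by 1.74, and *Cdkn1b* (p27) rose by 1.07. Of 41 genes of G2 and mitosis 13 (31.7%) rose and 12 (29.3%) fell, near the shares of all genes, with *Mki67* at 24929.7 ± 2002 and 33929 ± 2786 (log2 difference 0.45, FDR = 1.7e-05). Targets and partners of p53 and members of the BCL2 family were lower in 18 (62.1%) of 29 cases and higher in 6 (20.7%), with a median of -1.37. *Ccng1* fell from 32362 ± 4933 to 3278 ± 321 (log2 difference -3.29, FDR = 5.8e-15), *Phlda3* by 3.24 and *Mdm2* by 1.38, while *Trp53* itself was not called (log2 difference 0.12, FDR = 0.107). The death effector *Bak1* fell (2256 ± 186.3 to 229 ± 18.6, log2 difference -3.29, FDR = 6.7e-16) and *Bik* rose (57.02 ± 11.6 to 677 ± 43.7, log2 difference 3.57, FDR = 4.4e-12).

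Among metabolic genes, those of sterol synthesis moved in 1 direction. None of 28 sterol and lipid synthesis genes was called higher and 21 (75%) were lower, against 31.9% of all genes, with a median of -1.22. *Cyp51*, the sterol demethylase of the pathway, fell from 12221, 12458, 11546 and 13229 to 2079.8, 1974, 2486 and 2051, with no overlap between the groups (log2 difference -2.53, SE 0.0903, FDR = 2.2e-14). The regulators *Srebf1* and *Srebf2* were not called (0.19 and 0.27). Targets of the stress factor ATF4 were lower in 20 (80%) of 25 cases and higher in 2 (8%). Those that fell included *Slc7a11*, the cystine transporter (281 ± 26.2 to 8.46 ± 1.18), and *Phgdh*, the first enzyme of serine synthesis (7110.2 ± 193.2 to 1369.9 ± 176.1), and *Asns* was among those that rose (0.75). The glycolysis list had 6 (24%) higher and 8 (32%) lower of 25, near the shares of all genes. The lactate dehydrogenase subunits moved apart, with *Ldha* falling from 47804, 49846, 37322 and 47958 to 6518, 8154, 1729 and 7997 (log2 difference -3.12, SE 0.416, FDR = 1.5e-06) and *Ldhb* rising from 2123, 2390.1, 1958 and 2193 to 11412, 9322, 11343 and 10133 (log2 difference 2.28, SE 0.108, FDR = 8.9e-13). XGFP- library 3 was the lowest for *Ldha* and for the lactate exporter *Slc16a3*, which fell from 10989 ± 939 to 861 ± 458. Nuclear genes of oxidative phosphorylation fell in 37 (47.4%) of 78 cases and rose in 6 (7.69%), against 31.9% and 29.9% of all genes, with a small median of -0.21. Of 59 replication-dependent histone genes, 35 (59.3%) fell and 1 (1.69%) rose (2 without EpiLC library 1), with a median of -0.66.

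X-linked genes as a set had a lower median difference than the genes of any autosome. Their median log2 difference over 706 genes was -0.41, against -0.18 (chromosome 12) to 0.08 (chromosome 7) for the 19 autosomes. Of the X-linked genes 41.2% were called lower and 18.1% higher, against 31.9% and 29.9% of all genes. On single autosomes 27 to 40.2% were called lower, so the X share lies just above the highest of them. In XGFP+ PGCLCs, sorted by the opposite gate and compared with the same EpiLCs, the X median was 0.05. To divide the X total by chromosome, the share of allelic reads from X mus was multiplied by the normalized count for the 201 genes that were biallelic in ESCs (mean share 0.3 to 0.7). The X mus output of these genes was 210103, 213298, 188429 and 192123 normalized counts in EpiLCs and 139042, 156790, 145142 and 170083 in XGFP- PGCLCs, 76.01% of the EpiLC level (log2 -0.40, two-sided exact permutation p = 0.0286, the smallest that 4 against 4 libraries can give, Benjamini-Hochberg adjusted p = 0.0286 over 2 alleles). The X cas output was 401595, 424916, 399379 and 432959 in EpiLCs and 446372, 455975, 435231 and 456031 in XGFP- PGCLCs, 108.1% (log2 0.11, exact permutation p = 0.0286, adjusted p = 0.0286). All XGFP- libraries were below all EpiLC libraries for X mus and above them for X cas. The XGFP- cells were sorted for loss of GFP from X mus, and the EpiLCs were not sorted. A lower X mus output is therefore partly set by the gate, and how far the gate bears on the X median was not tested. The permutation p for X mus is no independent evidence of silencing. These sums weight abundant genes. The mean of the log2 outputs over genes differed by -2.47 for X mus, a deeper fall than the sum gives, and by -0.31 for X cas, the opposite direction to the sum. On leaving out 1 library in turn the X mus difference was -0.45 to -0.35, and without XGFP- library 4, the highest of its group for X mus, it was -0.45 (adjusted p = 0.0571). Together the chromosomes gave 97.6% of the EpiLC output, and the same sums over 244 genes of chromosome 13 gave 90.1% for mus and 89.1% for cas. Read numbers behind the shares were not given in the sources used here, so no interval can be set on them, and a share of 0 can also mean that no allelic read was present.

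**Figure D5:**
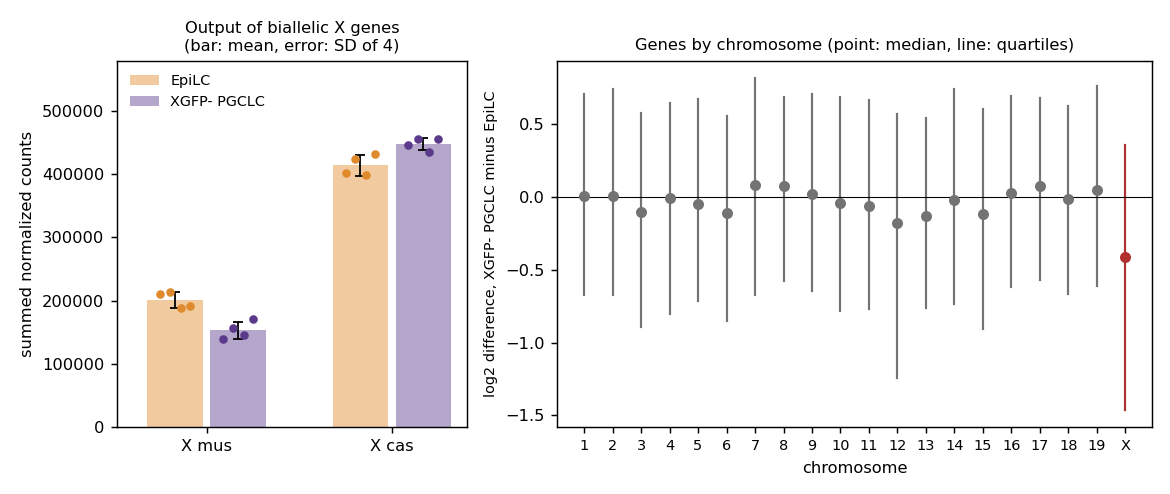
Left, summed normalized counts of 201 X-linked genes assigned to X mus or X cas by their allelic share, with 1 point per library, bars at the mean and error bars of 1 SD. Right, median log2 difference of tested genes per chromosome with a line between the quartiles, where the X, in red, has a median of -0.41 and the autosomes lie between -0.18 and 0.08.

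Single X-linked genes showed how far the XGFP- cells, sorted for a silent X mus, differed from the unsorted EpiLCs. After leaving out 69 of the 201 biallelic genes, which had a mean count of 100 or less in any of the 4 bulk groups, the X mus share was lower in XGFP- PGCLCs for all but 10 genes, with a median of 0.254 in EpiLCs and 0.0752 in XGFP- PGCLCs. The median log2 difference over these genes was -1.68 in X mus output, 0.08 in X cas output and -0.07 in total level. Of their totals, 43 were called higher and 53 lower. The median total lies within the range of the autosome medians. The lower median of all X-linked genes tested therefore does not hold for this well covered subset. Nor did its median X cas output show the fall seen in the mean of log2 outputs over all 201 biallelic genes. *Maoa* (ENSMUSG00000025037, chrX:16619698-16687818), monoamine oxidase A, had X mus shares of 0.437, 0.429, 0.413 and 0.389 in EpiLCs and 0.00606, 0.0769, 0.00909 and 0.0255 in XGFP- PGCLCs, and its total fell by 1.85 in log2. *Shroom4*, which binds the actin cytoskeleton, went from shares of 0.467, 0.413, 0.417 and 0.354 to 0.0386, 0.0544, 0.0374 and 0.0357, but its total rose (log2 difference 1.26, FDR = 2.7e-10). *Slc6a8*, the creatine transporter, went from 0.422, 0.384, 0.322 and 0.233 to 0.00909, 0.0069, 0 and 0, and *Diaph2* and *Xlr3b* (1 of several similar copies) had the other largest falls in share, to means of 0.0280 and 0.0162. At the other end *Kdm6a*, a known escape gene that encodes a demethylase of histone H3 lysine 27, had 0.432, 0.535, 0.479 and 0.522 in EpiLCs and 0.474, 0.499, 0.44 and 0.524 in XGFP- PGCLCs. *Suv39h1* (0.486, 0.43, 0.432 and 0.445 and 0.396, 0.462, 0.464 and 0.469), *Taf1* and *Nkap* also differed in mean share by less than 0.01. In XGFP- PGCLCs 25 of these genes had a share above 0.3. *Xist* (ENSMUSG00000086503, chrX:103460366-103483254), the RNA that coats and silences the chromosome, had 21601, 27459, 26462 and 21964 counts in EpiLCs and 6762, 7849.7, 5668 and 6434 in XGFP- PGCLCs, with no overlap (log2 difference -1.87, SE 0.182, FDR = 2.5e-08). Among candidates for X dosage effects *Pim2*, a serine/threonine kinase, fell from 12432, 13958, 14615 and 17328 to 112.7, 139.2, 129.8 and 98.95 (log2 difference -6.91, SE 0.113, FDR = 4.6e-18) and *Dusp9*, a phosphatase that dampens ERK, from 5249.7 ± 1057 to 1610.4 ± 159.7 (log2 difference -1.69, FDR = 1.4e-10).

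The largest rises among genes with a mean count above 100 over the 8 libraries came from genes almost silent in EpiLCs. *BC048679* had 0, 0.989, 2.98 and 0 counts in EpiLCs and 1215, 1586, 1335 and 1836 in XGFP- PGCLCs (log2 difference 9.78, SE 0.446, FDR = 5.5e-13). *Igf1* (ENSMUSG00000020053, chr10:87858265-87937042), insulin-like growth factor 1, had 3.17, 0.989, 0 and 0 and 595, 673, 541 and 666 (log2 difference 8.51, SE 0.374, FDR = 3.3e-13). *Isl2*, a LIM homeobox factor, had 2.38, 2.97, 3.97 and 2.96 and 1127, 1157, 1118 and 989 (log2 difference 8.09, SE 0.389, FDR = 1.1e-12). *Lrat*, which esterifies retinol for storage, rose from 5.70 ± 2.35 to 919 ± 63.7, *Chdh*, choline dehydrogenase, from 28.6 ± 8.13 to 3759 ± 330.3, and *Vsir*, an immune checkpoint protein, from 10.8 ± 2.41 to 1534 ± 266. *Gata2*, described above, *Fam163a* and the antisense transcripts *Gm11747* and *C130021I20Rik* complete the 10 largest, with *Fam163a* at a ratio of 761, 95% interval 210.3 to 6291. The libraries had been made with a strand-specific kit, but the strand setting of the counting was not given in the sources used here, so reads of antisense transcripts and their partners may be mixed.

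The largest falls were of genes well expressed in EpiLCs. *Gja1* (ENSMUSG00000050953, chr10:56377330-56402513), connexin 43, fell from 6758, 6824, 7803 and 7650.1 to 6.07, 6.10, 5.77 and 9.28 (log2 difference -9.88, SE 0.298, FDR = 2.5e-15). *Nt5e* (CD73) fell from 1254, 1454, 1587 and 2219 to 0, 1.02, 0.962 and 1.03, a ratio of 2222, 95% interval 759.8 to 10775. *Prps2* (ENSMUSG00000025742, chrX:167346322-167382749), an X-linked phosphoribosyl pyrophosphate synthetase, fell from 6543, 6049, 7568 and 6863 to 6.07, 10.2, 10.6 and 12.4 (log2 difference -9.32, SE 0.248, FDR = 4.9e-16). *Tmem54* and *Has2*, a hyaluronan synthase, each had 1 read over the 4 XGFP- libraries, at ratios of 4119, 95% interval 739 to 162740 and 3396, 95% interval 609 to 134154, and *Fam131b* had 3 reads, at 914, 95% interval 313 to 4437. *Fgf15*, *Grb10* and *Wnt8a* also belong to this set. The genes of this set named so far were at under 20 counts in every XGFP- library. The zinc finger factor *Klf9* also belonged to the deep falls, from 3670.5, 3204, 3860 and 3716 to 33.8, 34.5, 24.04 and 40.2 (log2 difference -6.75, SE 0.173, FDR = 3.2e-16), while it stood at 1023 ± 316 in XGFP+ PGCLCs.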

How the data were processed

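RNA was measured as stranded total RNA libraries sequenced with paired 125 nt reads. The authors aligned reads with STAR to mm10 with the strain SNPs masked, counted them per gene with HTSeq 0.6.1 and deposited a normalized signal, the count divided by a DESeq2 (1.16) size factor per library. They also deposited allelic ratios, the fraction of allelic reads of a gene that carry the mus allele, for X-linked and chromosome 13 genes, and 4 ratio columns of another cell type were not used. All values of the 8 libraries were whole multiples of 1 read (100% within 0.01 read), which gave depths of 36810832 to 46533858 reads. Intervals and floors set from read numbers cover counting error only. Sorting, culture and allele labels came from the sample descriptions, and these do not say which libraries share a clone or are technical replicates.

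Genes with a mean above 10 were tested on log2(normalized count + 1) with limma 3.58.1 (trend, 16 libraries in 4 groups) at FDR 0.001. Because the values are size-factor signal and not counts, edgeR 4.0.16 and DESeq2 1.42.0 on the recovered reads were alternatives. On simulated counts for 16281 genes with 200 changed by a log2 fold of 2, limma recovered 197 (98.5%) with 0 false calls. The simulation used a single fixed dispersion, independent libraries and far fewer changed genes than were called here. It therefore shows that the code recovers planted changes and gives no rate of false calls for these data. Allele output was tested by exact permutation over libraries. The members and gene lists were chosen with earlier results of these data known. Genes named are the 4 specifier and germ cell markers, the 10 largest rises and 10 largest falls above a mean of 100, list members with the largest called changes and, chosen after values were seen, members a reader would look for by role. Gene names and positions are from GENCODE vM21 (232 listed genes had no name there) and promoters from RefSeq GRCm38.p6. A few genes that this rule selects are not reported here. Single-cell files were not used. Other pseudocounts, filters, normalizations, libraries left out, allele windows and a replicate block were tried.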

Additional observations from a re-analysis of the deposited data

Results flagged for a closer look

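Of 415 groups of 4 libraries examined for a library far from the other 3 (a gap above Dixon's 95% critical value, which chance gives in about 1 group in 20), 25 were found. That share is near the rate that chance gives, so any single flag listed here may be chance. In EpiLC library 1 *Id3* (160 counts against 119.7 to 124.2) and *Ifitm2* (3572 against 2602 to 2761) were high and *C130021I20Rik* (0.792 against 1.98 to 1.99) was low. EpiLC library 2 was high for *Slc7a11* (320.4), *Ddx4* (614) and *Gm11747* (4.94). EpiLC library 3 was high for *Setdb1* (6680 against 6471 to 6486) and low for *Cdkn1b* (699.5), *Srebf1* (2583) and *Ldha* (37322 against 47804 to 49846). EpiLC library 4 was low for *Tet1* (9743), *Meioc* (1189) and *Cdc45* (1884). XGFP- library 4 was high for *Slc25a31* (31.95 against 15.4 to 17.3), *Nlrp14* (31.95 against 11.2 to 13.9), *Nkap* (1855) and *Gja1* (9.28). XGFP- library 3 was high for *Setdb1* (7213.5), and XGFP- library 2 was low for *Kdm6a* (7662) and high for *Foxa2* (19.3). XGFP- library 1 was high for *Wnt5b* (57.2 against 33.7 to 36.1). For genes with 1 to 3 reads in the XGFP- group the distance is that of single reads, as for *Nt5e* (0 in XGFP- library 1), *Tmem54* (0.867 in XGFP- library 1), *Has2* (0.962 in XGFP- library 3) and *Fam131b* (2.60 in XGFP- library 1).

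A further 4 named genes were called in opposite directions in XGFP- and XGFP+ PGCLCs against the same 4 EpiLC libraries, so these comparisons share their controls. The difference was tested as XGFP- minus XGFP+ with limma. *Tbx3* changed by -2.23 in XGFP- and 2.25 in XGFP+ PGCLCs and differed by -4.49 (FDR = 1.3e-10). *Sohlh2* changed by -1.77 and 1.40 and differed by -3.17 (FDR = 6.2e-08). *Bmp4* changed by -0.76 and 1.07 and differed by -1.83 (FDR = 4.1e-08). *Peg3* changed by 1.603 and -0.458 and differed by 2.06 (FDR = 1.4e-11). Over all genes tested, 90 had such opposite calls, 66 of them lower in XGFP- PGCLCs and 24 higher.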

How the results depend on the processing

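The counts of genes called stayed within 1.5 times of 4873 higher and 5200 lower in every alternative fit, at 4400 to 5261 higher and 4250 to 5587 lower, and at 4550 to 4703 higher and 4873 to 5010 lower on leaving out 1 library in turn. With a log2 difference above 1 also required they were 2618 and 3067. With a replicate block they were 4997 and 5331, and the replicate numbers paired the libraries weakly at most. Deviations of same-numbered libraries correlated at 0.0448, 0.0772, 0.0836 and -0.00212, and 3 of 4 correlated best with their own number. Of 188 named genes called, 186 were called in all 17 alternatives and none changed direction. *Pou5f1* lost its call after quantile normalization and *Bmp4* there and without EpiLC library 1 or XGFP- library 3. Of 21 named genes not called, 3 were called in some alternative (*Cdx2*, *Nkap* and *Klf4*, the last also with the replicate block, FDR = 0.000596) and 5 changed sign, *Dazl* (-0.368 without XGFP- library 4, up to 0.511 without library 1), *Piwil2* (-0.006 without library 4, up to 0.306 without library 1), *Id1* (-0.003 without XGFP- library 2, up to 0.224 without library 3), *Diaph2* (-0.016 after quantile normalization, and -0.045 to 0.152 on leaving out a library) and *Kdm6a* (0.029 after quantile normalization).

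The X-linked median of -0.41 was -0.37 among genes with a mean above 50 and -0.23 after quantile normalization. The X mus output difference was -0.39 (adjusted exact permutation p = 0.0571) for genes with an ESC share of 0.2 to 0.8 and -0.21 (p = 0.0857) for 0.4 to 0.6. As a geometric mean over genes, where a share of 0 in a low gene weighs as much as a highly expressed gene, the X mus difference was -2.47 (p = 0.0286). The X cas difference was 0.061 (p = 0.143) and 0.24 (p = 0.0571) in these windows. It was -0.31 (p = 0.0286) as a geometric mean over genes, where the total of a low gene weighs as much as that of a highly expressed gene. Leaving out 1 library gave -0.451 to -0.353 for X mus and 0.095 to 0.134 for X cas. The adjusted p was then 0.0286 without EpiLC library 2 or 4 and 0.0571 without any other library, in designs whose smallest p is 0.0286. The groups did not overlap for either allele whichever library was left out, so the larger p does not reflect overlap. The causes of these changes were not tested. Depth sets the limit for genes at 0 in XGFP- PGCLCs, where folds are lower bounds, and allelic depth is unknown.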

Other observations

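Genes of S phase moved in both directions. Of 44 tested, 20 (45.5%) were called lower and 10 (22.7%) higher by limma, against 31.9% and 29.9% of all genes, with a median log2 difference of -0.18. *Gins2*, a subunit of the replicative helicase, fell from 2272, 2106, 2159 and 2222 counts to 629, 659, 600.2 and 602 (log2 difference -1.81, SE 0.0642, FDR = 2.0e-14), whereas *Cdc45*, its partner in the same helicase, rose from 1967, 1968, 1963 and 1884 to 4579.9, 4474, 4439 and 4734 (log2 difference 1.23, SE 0.0445, FDR = 2.7e-14). The libraries of the groups did not overlap for either gene. The transcription factor *E2f2* rose from 202 ± 23.6 to 646 ± 27.1 (log2 difference 1.68, FDR = 6.2e-12).

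Of 21 genes known to respond to low oxygen 7 (33.3%) rose, near the 29.9% of all genes, and 4 (19%) fell, against 31.9%. *Vegfa*, a growth factor for blood vessels, rose from 497, 605, 473 and 537 to 3399, 3571, 2934 and 3637 (log2 difference 2.68, SE 0.182, FDR = 1.4e-10), and *Ero1l*, an oxidase of the endoplasmic reticulum, from 1394 ± 198.3 to 6989 ± 1468 (log2 difference 2.31, FDR = 4.6e-11). *Ndrg1* fell from 402 ± 53.7 to 63.05 ± 19.3 (log2 difference -2.70, FDR = 4.6e-09). Among Klf and Sp zinc finger factors *Klf8*, an X-linked gene, rose from 621, 684, 629 and 648 to 5621, 5569.8, 5269.7 and 5960.5 (log2 difference 3.12, SE 0.0975, FDR = 4.2e-15), *Klf5* rose by 1.87 and *Klf12* fell by 3.32 in log2.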
